A study of Mus musculus with 15 samples.

Results

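The Hox cluster genes encode homeodomain transcription factors that give cells their position along the body axis. They were followed here in TKO mouse embryonic stem (ES) cells, a line labelled as deficient in DNA methylation and known to lack the methyltransferases Dnmt1, Dnmt3a and Dnmt3b, and in wild-type J1 ES cells. Members were all array probes named Hoxa, Hoxb, Hoxc or Hoxd with a number. The expression arrays carried 50 such probes for 38 genes among 41174 probes. The promoter arrays carried 134 such probes among 80567, named for 24 genes, all of which were also on the expression arrays; the other 14 had no promoter probe of their own name. Both lines were grown without feeder cells for 2 passages in medium with serum and LIF. Methylated DNA was immunoprecipitated (MeDIP) from 2 ug of genomic DNA and both lines were hybridised together on Agilent 2-colour promoter arrays, whose design was split into part 1 with the Hoxa and Hoxd promoters and part 2 with the Hoxb and Hoxc promoters. There were 7 arrays of each part, from different passages. RNA of both lines was hybridised together on 3 expression arrays that were deposited as 1 sample, with the dyes of replicate 2 swapped. The study compared 1 J1 and 1 TKO line, and p-values measure the spread between arrays, not that among independent lines. The number of arrays limits the precision.

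Hox genes lie in the clusters Hoxa, Hoxb, Hoxc and Hoxd, and genes of different clusters with the same number are paralogs that descend from one ancestral gene. Genes with low numbers are used early and towards the head of an embryo, those with high numbers late and towards the tail and in the limbs. In ES cells the clusters are textbook targets of Polycomb repression, and many of their promoters are rich in CpG, the dinucleotide whose methylated cytosine the MeDIP antibody recognises.

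RefSeq promoter windows (GRCm38.p6, 250 bases before to 50 bases after a start) were found for 22 of the 38 genes, as 24 windows of 300 bases. The Hox windows held between 4 and 45 CpG with a median of 14.5, against a median of 7 over all 32851 windows of the table. Shown, with each CpG in capitals, are the windows of 4 genes that were higher in TKO among the tested expression probes (below). Hoxb2 and Hoxc9, the tested genes that differed most, had no window. Hoxd13 (chr2:74667975-74668274, plus strand) held 37 CpG, Hoxd1 (chr2:74762730-74763029, plus strand) held 29, Hoxa7 (chr6:52218524-52218823, minus strand) held 9 and Hoxd4 (chr2:74721728-74722027, plus strand) held 4.
Hoxd13: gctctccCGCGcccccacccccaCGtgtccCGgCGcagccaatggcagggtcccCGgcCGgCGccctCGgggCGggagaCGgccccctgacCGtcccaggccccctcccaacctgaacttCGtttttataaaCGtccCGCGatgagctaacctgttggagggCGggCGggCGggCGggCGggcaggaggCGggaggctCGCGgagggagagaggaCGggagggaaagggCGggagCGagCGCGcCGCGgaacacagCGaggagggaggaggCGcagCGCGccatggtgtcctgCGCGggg
Hoxd1: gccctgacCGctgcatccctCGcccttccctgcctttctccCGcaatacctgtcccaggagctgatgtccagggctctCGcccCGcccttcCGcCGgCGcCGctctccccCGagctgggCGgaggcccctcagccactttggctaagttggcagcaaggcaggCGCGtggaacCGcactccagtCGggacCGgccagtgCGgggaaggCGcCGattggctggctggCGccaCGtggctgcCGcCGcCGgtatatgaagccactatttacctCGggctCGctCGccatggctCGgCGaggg
Hoxa7: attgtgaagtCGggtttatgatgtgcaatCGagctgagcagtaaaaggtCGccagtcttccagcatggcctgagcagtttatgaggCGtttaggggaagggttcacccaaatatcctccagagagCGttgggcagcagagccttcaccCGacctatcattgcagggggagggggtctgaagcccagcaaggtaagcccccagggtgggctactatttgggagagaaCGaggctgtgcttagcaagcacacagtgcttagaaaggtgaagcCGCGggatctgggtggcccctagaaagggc
Hoxd4: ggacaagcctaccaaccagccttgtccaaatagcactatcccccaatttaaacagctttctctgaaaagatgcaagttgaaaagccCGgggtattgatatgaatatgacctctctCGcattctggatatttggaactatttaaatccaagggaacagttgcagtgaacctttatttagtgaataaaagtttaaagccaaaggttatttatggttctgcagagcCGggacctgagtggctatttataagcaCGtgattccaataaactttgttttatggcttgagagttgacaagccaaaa
The CpG-dense windows of Hoxd13 and Hoxd1 and the CpG-poor window of Hoxd4 belong to genes of the same cluster.

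Across the whole arrays, between 88.2% and 99.7% of probes of a MeDIP channel were well above background, and between 38.5% and 66.7% of probes of an expression channel. Replicate 3 of the expression arrays was the dimmest and had 8386 uneven spots, against 11 and 57 on replicates 1 and 2. The label check held on the expression arrays: Dnmt3b had a log2(TKO/J1) of -2.50 ± 0.19 (SD, n = 3), Dnmt3a of -2.36 ± 0.18 (2 arrays) and Dnmt1 of -1.07 ± 0.25 (2 arrays). Whether these probes fall inside the deleted sequence is unknown. The labels allow either dye order on the expression arrays, and J1 in Cy5 on replicates 1 and 3 was taken as the likely one.

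The first comparison asked which Hox RNAs differed between the lines. Of the 8 Hox probes that were bright enough to test, 6 were higher in TKO and 0 were lower: Hoxb2 and Hoxc9 by the most, then Hoxd13, Hoxd1, Hoxd4 and Hoxa7. These included the 3 Hoxd probes tested. A probe was tested if it was well above background on all 3 arrays in TKO or in J1, and called at a limma adjusted p (Benjamini-Hochberg, over 16086 probes) under 0.05. By that rule 15.9% of all tested probes were higher in TKO and 14.6% lower. The filter lets a gene in through the line where it is bright, so nothing is read from the share among the 8. Hoxb2, Hoxc9, Hoxd13 and Hoxd1 passed it through TKO only. Past a 2-fold difference as well, 1 Hox probe (Hoxc9) was higher and 0 were lower, against 1.37% and 0.591% of all tested probes. Every ratio below is log2(TKO/J1) after normexp background correction (offset 50) and loess, which shrinks the ratios of dim probes; the ratio of the Agilent processed signals, without that offset, is given beside it for the Hox probes that passed the filter.

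Hoxc9, a gene of the trunk, had log2 ratios of 1.05, 0.99 and 1.53 on replicates 1, 2 and 3, with a mean of 1.19 ± 0.30 (SD, n = 3, limma adjusted p = 8.52e-05). It was well above background in TKO on all 3 arrays and in J1 only on replicate 3. With the processed signals the ratios were 2.95, 3.92 and 2.96, a mean of 3.28, so that the size of the difference depends strongly on the background correction while each array put TKO higher.

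Hoxb2, which patterns the hindbrain, had log2 ratios of 0.94, 0.72 and 1.33, with a mean of 1.00 ± 0.31 (SD, n = 3, limma adjusted p = 0.000262). TKO was well above background on all 3 arrays and J1 on replicates 1 and 2. The processed signals gave 2.35, 2.31 and 2.66, a mean of 2.44. Hoxb2 and Hoxc9 were the only Hox probes that also passed with median centring in place of loess, at 0.92 (limma adjusted p = 0.00875) and 1.10 (limma adjusted p = 0.00249). A second Hoxb2 probe was well above background only in TKO on replicate 1 and had 0.17, 0.14 and -0.05.

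The Hoxd cluster had 3 tested probes. Hoxd13, a gene of digits and the genital bud, had 0.45, 0.60 and 0.71 on the 3 arrays, with a mean of 0.58 ± 0.13 (limma adjusted p = 0.00106). This probe carries the accession of a cDNA clone named Hoxd13; the other Hoxd13 probe did not pass the filter and had 0.38, 0.14 and 0.04. Hoxd1 had 0.36, 0.47 and 0.44, with a mean of 0.42 ± 0.06 (limma adjusted p = 0.00402). In J1 the tested Hoxd13 probe and Hoxd1 were well above background on replicates 1 and 2 only. Hoxd4, which is induced by retinoic acid in the hindbrain, had 0.46, 0.29 and 0.51, with a mean of 0.42 ± 0.11 (limma adjusted p = 0.00535), and was well above background in both lines on every array. With the processed signals Hoxd13, Hoxd1 and Hoxd4 reached 0.99, 1.05 and 1.13, about a doubling each.

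In the Hoxa cluster, Hoxa7 had 0.48 and 0.36 on replicates 1 and 2, with a mean of 0.42 ± 0.09 over these 2 arrays (limma adjusted p = 0.0166); its spot on replicate 3 was marked as uneven and left out. The processed signals gave 0.88 and 0.76, a mean of 0.82. In the Hoxb cluster Hoxb9, a gene of the thorax, had 0.11, 0.09 and 0.25, a mean of 0.15 ± 0.09 (limma adjusted p = 0.194). It was above 0 on every array and did not pass; with the processed signals it was at 0.39 and passed (limma adjusted p = 0.0285). With median centring Hoxa7, Hoxd1, Hoxd4 and Hoxd13 did not pass, at 0.44, 0.33, 0.35 and 0.46 (limma adjusted p = 0.318, 0.353, 0.32 and 0.176). Leaving out replicate 1 or 2 left a single array for Hoxa7, so those fits cannot show how stable its call is.

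**Figure D1:**
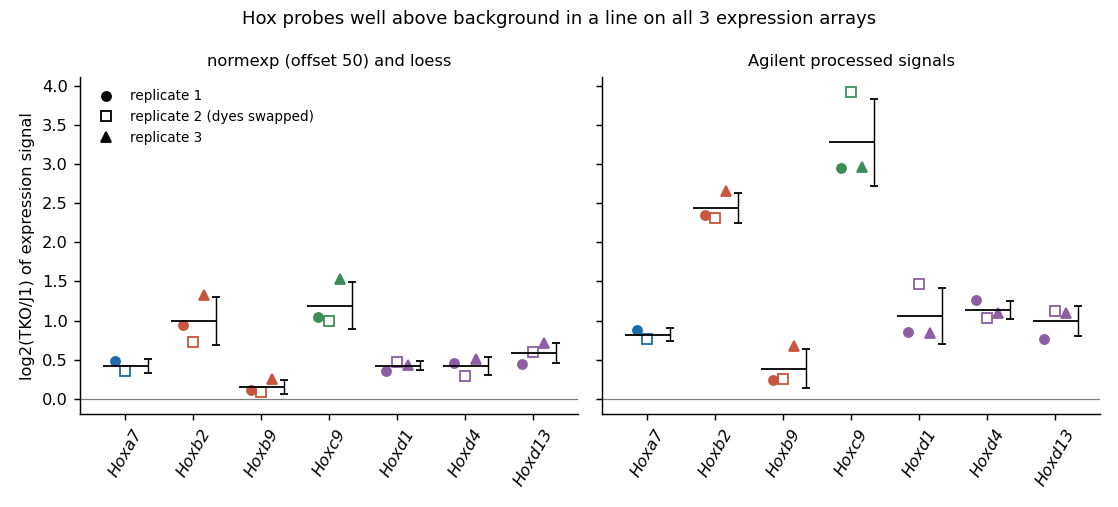
Log2(TKO/J1) of 7 Hox probes that passed the detection filter, after normexp and loess on the left and from the Agilent processed signals on the right. Symbols are single arrays, bars the mean and error bars the SD; every point lies above 0, and Hoxb2 and Hoxc9 stand highest in both panels.

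The remaining Hox probes were too dim for the filter, and 14 of the 50 were not well above background in either line on any array. These 14 were probes of Hoxa2, Hoxa3, Hoxa4, Hoxa5, Hoxa13, Hoxb1, Hoxb3, Hoxb5, Hoxb8, Hoxc8, Hoxc10, Hoxd3 and Hoxd11, with both probes of Hoxb8 among them. Without any filter, 30 of the 49 Hox probes measured on all 3 arrays were above 0 on each array and 3 were below, against 20.5% of all probes above and 20.5% below. The 3 below were probes of Hoxa3, Hoxb6 and Hoxc4. The median ratio of the 50 Hox probes was 0.07, against -0.00065 over all probes. On that unfiltered fit 10 Hox probes were higher and 0 lower, against 7.22% and 6.04% of all probes: the 6 above and Hoxa10, Hoxa11, Hoxb7 and Hoxc6. Of these, Hoxc6 was well above background only in TKO on replicate 1, with a mean of 0.25. With a 2-fold difference as well, 1 (Hoxc9) was higher and 0 were lower, against 0.641% and 0.257% of all probes.

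Hoxa10, a gene of the lower trunk and uterus, stood out among the dim probes. It was well above background in TKO on replicates 1 and 2 and in J1 on none of the 3 arrays, with log2 ratios of 1.20, 0.95 and 0.69 (limma adjusted p = 0.0105 without the filter). TKO was at least 1.82-fold higher, a bound that sets its mean against the lowest signal still well above background in J1 and that is open to dye bias with 3 arrays. The same bound was 1.22-fold for Hoxa11, 1.18-fold for Hoxd9 and 1.14-fold for Hoxd8. Each was well above background in TKO on replicates 1 and 2 and in J1 on none. Another Hoxd9 probe was seen in TKO on replicate 1 only. Hoxd9 and Hoxd8 did not pass on the unfiltered fit (limma adjusted p = 0.085 and 0.0568). Bounds were set only for probes seen in TKO on at least 2 arrays and in J1 on none. Nothing is therefore read from their direction. The TKO means, that of Hoxa10 included, take in replicate 3, where TKO was not well above background. Hoxb7 was well above background in both lines on replicates 1 and 2 only, with 0.70, 0.65 and 0.51. Hoxa9, detected on the same arrays, had 0.68, 0.20 and 0.39 and did not pass on the unfiltered fit (limma adjusted p = 0.0569).

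More Hox genes were detected in TKO than in J1. On all 3 arrays 8 of 38 genes were well above background in TKO and 4 in J1, Hoxa7, Hoxb9 and Hoxd4 among them. Over all probes of the arrays the shares were 36.0% in TKO and 37.8% in J1. Asked for on at least 2 of 3 arrays, the counts were 18 genes in TKO and 14 in J1. The shares of Hox probes were then 40.0% and 30.0%, against 54.1% and 56.7% of all probes. Hoxc5 was detected by that rule in J1 and not in TKO. On replicate 1, 36 Hox probes were well above background in TKO (Cy3) and 17 in J1 (Cy5); on replicate 2, with the dyes swapped, 20 were in TKO (Cy5) and 16 in J1 (Cy3); on replicate 3, 8 were in TKO (Cy3) and 5 in J1 (Cy5). Over all probes the shares were 66.7% in TKO and 58.9% in J1 on replicate 1, and 52.2% and 58.8% on replicate 2. They were 38.5% and 39.5% on replicate 3. TKO had more detected Hox probes on each of the 3 arrays. The gap was largest on replicate 1, where more of all probes were also detected in TKO. The part of the dye in these counts was not tested.

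**Figure D2:**
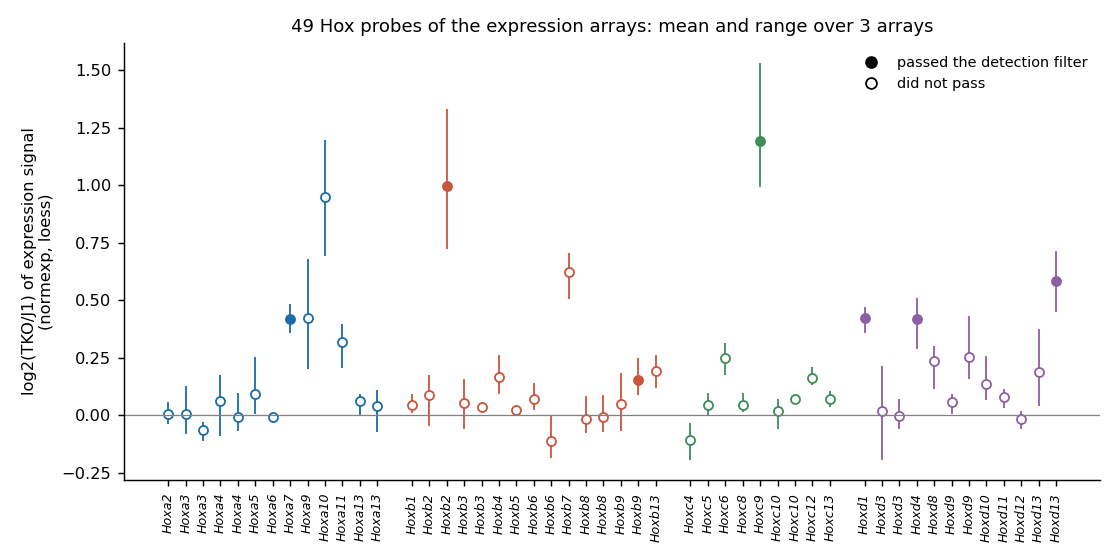
Mean (points) and range over the arrays (lines) of log2(TKO/J1), after normexp and loess, for 49 Hox probes by cluster and paralog number. Filled points passed the detection filter; most open points lie near 0, with Hoxa10 and Hoxb7 the highest of them at 0.95 and 0.62.

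The higher probes were spread over the clusters. Without the filter the median ratio was 0.06 over 14 Hoxa probes, 0.05 over 15 Hoxb probes, 0.07 over 9 Hoxc probes and 0.16 over 12 Hoxd probes. Several paralog groups had most probes above 0 on every array. Among them were 5 of 6 probes in group 9, led by Hoxc9, and 5 of 6 in group 13. Group 1 had 3 of 3 and group 10 had 3 of 4. The 2 probes of group 7, Hoxa7 and Hoxb7, were both above 0 wherever measured. Over all probes 20.5% were above 0 on all 3 arrays. Several of the Hox probes counted here were dim. Hoxb1 was well above background on no array in either line. In group 13 the counted probes of Hoxa13, Hoxb13 and Hoxc13 were so in TKO on 1 array and in J1 on none. The counts by group therefore do not show which RNAs changed. Groups 3 and 8 lay nearest to 0, with medians of 0.01 and 0.02. Ratios differed within paralog groups: within group 2, the brighter Hoxb2 probe was at 1.00 and Hoxa2 at 0.01. Within group 4, Hoxd4 was at 0.42 and Hoxc4 at -0.11. Hoxa2 was well above background on no array in either line, so its ratio does not show whether its RNA changed. Hoxc4 was well above background only on replicates 1 and 2, in both lines.

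Genes that work with the Hox clusters were called in both directions. Counts below use the brightest tested probe of each gene; on that basis 16.7% of 12080 genes were higher and 15.6% lower in TKO. Of the 9 cofactor genes that bind DNA together with Hox proteins, 5 were measured and 1, Meis2, was higher at 0.66 ± 0.06 on 2 arrays (limma adjusted p = 0.00208), while 0 were lower; with median centring Meis2 was at 0.68 and did not pass (limma adjusted p = 0.106). Of 27 Polycomb genes 20 were measured, 4 higher and 3 lower, with a median of 4.16e-05. The falls were larger than the rises: Cbx7, a chromodomain subunit prominent in ES cells, was at -0.92 ± 0.23, Phc1 at -0.86 ± 0.10 and Cbx6 at -0.71. The highest rise was in Rbbp7, a histone-binding subunit, at 0.51 ± 0.12. With median centring Cbx7, Phc1 and Cbx6 kept their direction and passed, at -1.16, -1.18 and -0.97, and Rbbp7 was at 0.18 and did not. Jarid2, another of the 4 higher genes at 0.29, was at -0.0016 with median centring.

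All 10 genes of the Trithorax and demethylase list, which counter Polycomb, were measured, 1 higher and 3 lower. Ash2l was at 0.53 ± 0.23 on 2 arrays, Kmt2a at -0.43 on 2 arrays, Kdm6a at -0.33 ± 0.05 on 2 arrays and Rbbp5 at -0.29 ± 0.17. With median centring none of these 4 passed. Of 21 retinoic acid genes and upstream regulators of the clusters 8 were measured, 3 higher and 1 lower. The retinoic acid response gene Stra8, best known from germ cells, was at 2.27 ± 0.17, Crabp1 at 0.36 ± 0.17 on 2 arrays and the receptor Rxra at 0.32 ± 0.19. With median centring Stra8 passed, and Crabp1 and Rxra did not (limma adjusted p = 0.384 and 0.704). Of the 6 ParaHox genes, the sister group of the clusters, only Gsx1 was measured, at -0.05 ± 0.14, and Cdx2, a direct activator of Hox genes, was well above background in TKO on 2 arrays and in J1 on none.

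Of 14 genes that flank the clusters 12 were measured, 1 higher and 3 lower, with a median of -0.07. Evx2, next to Hoxd13, was at -0.05 ± 0.04 and Mtx2, beyond Hoxd1, at 0.16 ± 0.02; neither passed, and Mtx2 was at -0.11 with median centring. Ttll6, near the Hoxb cluster, was lower at -0.64 ± 0.11, Hibadh, near the Hoxa cluster, at -0.34 ± 0.11 on 2 arrays and Cbx5, near the Hoxc cluster, at -0.31 ± 0.18. Snx10 was higher at 0.36 ± 0.21 on 2 arrays. With median centring Ttll6 passed and the other 3 did not.

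Most tested markers of primitive endoderm, trophoblast and fibroblasts were higher in TKO, and the other lists were mixed. All 5 measured of 8 primitive endoderm markers were higher in TKO, between 1.32 and 3.86, with Afp the highest; Gata4 and Foxa2 were too dim to test, and Sox7 was well above background in TKO on 2 arrays and in J1 on none. Of 8 trophoblast markers 4 were measured and 3 were higher, Krt8 at 2.90, Krt18 at 2.36 and Gata3 at 2.01, while Tfap2c was at -0.15. Ascl2, Hand1, Cdx2 and Elf5 were too dim to test. Ascl2 and Hand1 were well above background on 2 arrays in both lines. In TKO Cdx2 was so on 2 arrays and Elf5 on 1, and in J1 neither was on any. All 4 measured of 7 fibroblast markers were higher, between 0.48 and 1.42. Of 7 mesoderm markers 2 were measured: Gsc was higher at 0.56, and Kdr was at 0.02 and did not pass. T was well above background in TKO on 1 array and in J1 on none, and Mixl1 on none in either line. Of 5 neurectoderm markers Nes was higher at 0.91 and Otx2 lower at -0.38, while Pax3 was well above background on no array. Of 10 ES cell markers 7 were measured, with Sox2 at -0.80, Pou5f1 at -0.72 and Esrrb at -0.45 lower and Klf4 at 0.99 higher; with median centring only Sox2 of these 4 passed, and Col1a1 (the lowest of the fibroblast markers), Gsc and Otx2 did not pass (limma adjusted p = 0.228, 0.267 and 0.112). The part of such cells in the Hox differences was not tested, and in bulk RNA more cells of a type and more RNA per cell cannot be told apart.

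The second comparison asked whether Hox promoters were pulled down unequally by MeDIP. The ratio is log2 of the channel labelled TKO (Cy5) over the channel labelled J1 (Cy3) of the Agilent processed signals, centred on each array's median. There was no dye swap, and 2 promoters raise doubt about the labelled direction: Dppa3, an oocyte and ES cell gene, was at 0.72 ± 0.15 (SD, n = 7) and Asz1, a germ cell gene methylated in wild-type cells by textbook knowledge, at 0.65 ± 0.19, both above 0 on all 7 arrays. Ratios are therefore given by channel label, and no side is taken to be the more methylated.

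The Hox promoters lay close to 0, and none was called on either side. Of the 134 probes, 120 fell into 25 regions of at least 3 probes, and 0 of these 25 were called, which took an adjusted p (limma, Benjamini-Hochberg) under 0.05 together with a mean at least 0.5 from 0. On the labelled TKO side 2.70% of all 14656 regions were called, and 0.0887% on that of J1, so a count of 0 among 25 is near the background. Region means ran between -0.21 and 0.35, with a median of -0.04 against 0.01 over all regions, and a median distance from 0 of 0.07 against 0.12. At any size past the adjusted p, 2 Hox regions were above 0 and 7 below, against 31.3% and 25.1% of all regions. Above 0 on 7 of 7 arrays were 3 Hox regions and below 0 on 7 of 7 were 8, against 24.1% and 19.2% of all regions.

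Hoxa10 had the highest ratio of the Hox regions. Over 7 arrays its mean of 3 probes had a lowest value of 0.20, a median of 0.37 and a highest of 0.65, all above 0, with a mean of 0.35 ± 0.16 (SD, n = 7, limma adjusted p = 0.000283). The probes lay between -2396 and -1883 bp from the annotated start, so the start itself was not covered. The 2 outer probes carried the ratio, with 0.54 ± 0.22 at -2396 bp and 0.43 ± 0.26 at -2117 bp, while the probe at -1883 bp was at 0.09 ± 0.10. The outermost was the only one of the 134 that met both thresholds by itself, against 7.10% of all probes on that side, and 0 did so on the J1 side, against 0.850%.

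The other Hoxa regions were within 0.10 of 0. Another region named Hoxa3 lay between 20437 and 21768 bp from the Hoxa3 start, with most of its probes just upstream of the Hoxa4 start. It ran between -0.16 and -0.04 with a median of -0.09 and a mean of -0.10 ± 0.04 (limma adjusted p = 0.00988), below 0 on 7 of 7 arrays. Hoxa11 ran between -0.14 and -0.02 with a median of -0.10 and a mean of -0.10 ± 0.04 (limma adjusted p = 0.0124), also below 0 on 7 of 7. In it 1 probe at -1166 bp was at -0.48 ± 0.15, while the next 4 lay between -0.07 and 0.08, and with the median over probes the region was at -0.02. The 4 Hoxa3-named probes nearest to the Hoxa3 start ran between -0.06 and 0.18 with a median of 0.07 (mean 0.06 ± 0.09) and Hoxa13 between -0.14 and 0.13 with a median of 0.04 (mean 0.0048 ± 0.10); neither passed.

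Hoxb8, whose 4 probes lay nearest to the annotated start of Hoxb7, had the lowest ratio of the Hox regions. It ran between -0.40 and -0.05 with a median of -0.19 and a mean of -0.21 ± 0.12 (SD, n = 7, limma adjusted p = 0.00162). Hoxb2 ran between -0.30 and -0.0024 with a median of -0.17 and a mean of -0.17 ± 0.09 (limma adjusted p = 0.00229). Both were below 0 on 7 of 7 arrays. With normexp and median centring Hoxb8 was at -0.12 and short of the threshold (limma adjusted p = 0.0506). Hoxb13 (-0.06 ± 0.13, between -0.31 and 0.09), Hoxb1 (-0.0026 ± 0.07, between -0.11 and 0.10), Hoxb3 (-0.0033 ± 0.04, between -0.04 and 0.08) and Hoxb4 (0.02 ± 0.04, between -0.02 and 0.09) had arrays on both sides of 0 and did not pass. Within Hoxb4 neighbouring probes went opposite ways, with -0.44 ± 0.14 at -2001 bp and 0.48 ± 0.30 at -1492 bp, the second well above background in the J1 channel on 4 of 7 arrays.

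In the Hoxc cluster Hoxc5 and Hoxc6 lay on opposite sides. Hoxc5 ran between -0.24 and -0.10 with a median of -0.17 and a mean of -0.17 ± 0.05 (SD, n = 7, limma adjusted p = 0.000784), below 0 on 7 of 7 arrays. Hoxc6 ran between 0.07 and 0.25 with a median of 0.13 and a mean of 0.15 ± 0.07 (limma adjusted p = 0.00275), above 0 on 7 of 7, though at 0.03 with normexp and median centring it did not pass (limma adjusted p = 0.802). Hoxc10, tiled between -6434 and -5710 bp from its start, was at 0.07 ± 0.04 with 7 of 7 arrays above 0 and did not pass (limma adjusted p = 0.0658). Hoxc12 (-0.09 ± 0.11, between -0.26 and 0.03), Hoxc13 (-0.08 ± 0.09, between -0.22 and 0.05) and Hoxc4 (0.00085 ± 0.13, between -0.13 and 0.25) did not pass either. The 1 Hoxc probe farthest from 0 was that of Hoxc12 at 288 bp, with -0.42 ± 0.08 on 6 arrays.

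The Hoxd cluster had 4 regions. Hoxd11 ran between -0.18 and -0.05 with a median of -0.13 and a mean of -0.12 ± 0.05 (SD, n = 7, limma adjusted p = 0.00419), and the interval named Evx2-Hoxd13 between -0.20 and -0.03 with a median of -0.09 and a mean of -0.09 ± 0.06 (limma adjusted p = 0.0202). Both were below 0 on 7 of 7 arrays, and neither passed with normexp and median centring. Hoxd9 was at 0.03 ± 0.06, between -0.09 and 0.12. Hoxd1 ran between -0.15 and 0.44 with a median of -0.08 and a mean of -0.01 ± 0.21 (limma adjusted p = 0.906); replicate 6, the array of part 1 with the fewest probes well above background, was alone at 0.44. Without that array the mean was -0.08 and passed (limma adjusted p = 0.0421), as it did at -0.12 over probes well above background in both channels (limma adjusted p = 0.0143).

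**Figure D3:**
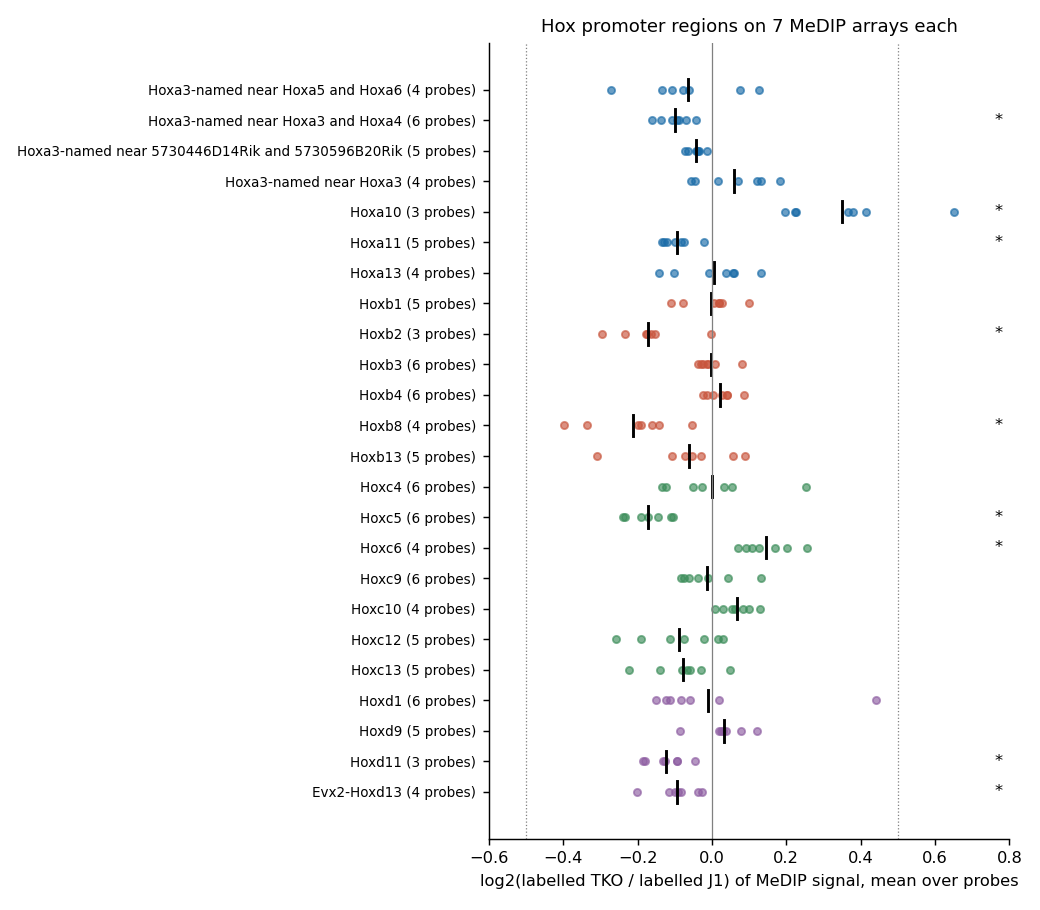
Mean log2 ratio over the probes of each of 24 Hox regions on the 7 arrays of its part (points), with the mean over arrays (bars). The region labelled with both Hoxa3 and Hoxa4 lay at least 20437 bp from the Hoxa3 start. Asterisks mark a limma adjusted p under 0.05 and dotted lines the size a call needs; 9 regions carry an asterisk and no bar reaches a dotted line, Hoxa10 being the nearest at 0.35.

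The remaining 14 probes lay in stretches of fewer than 3. These were single probes of Hoxb7, Hoxd11, Hoxb4 and Hoxc10 and pairs of Hoxa9, Hoxa13, Hoxb4, Hoxd13 and the Hoxa3 name near Hoxa6. The Hoxd13 probe at 31 bp, within the window printed above, was at -0.29 ± 0.17 and below 0 on 7 of 7 arrays (limma adjusted p = 0.00736). The Hoxd1 probe at -179 bp, also within its printed window, was at -0.26 ± 0.12 and below 0 on 7 of 7 (limma adjusted p = 0.00496). Positions are counted from the starts in the array files, whose build the sources used here do not give, so their place in the RefSeq windows is approximate. Over all 134 probes 16 passed the adjusted p above 0 and 27 below, against 22.0% and 19.5% of all probes.

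**Figure D4:**
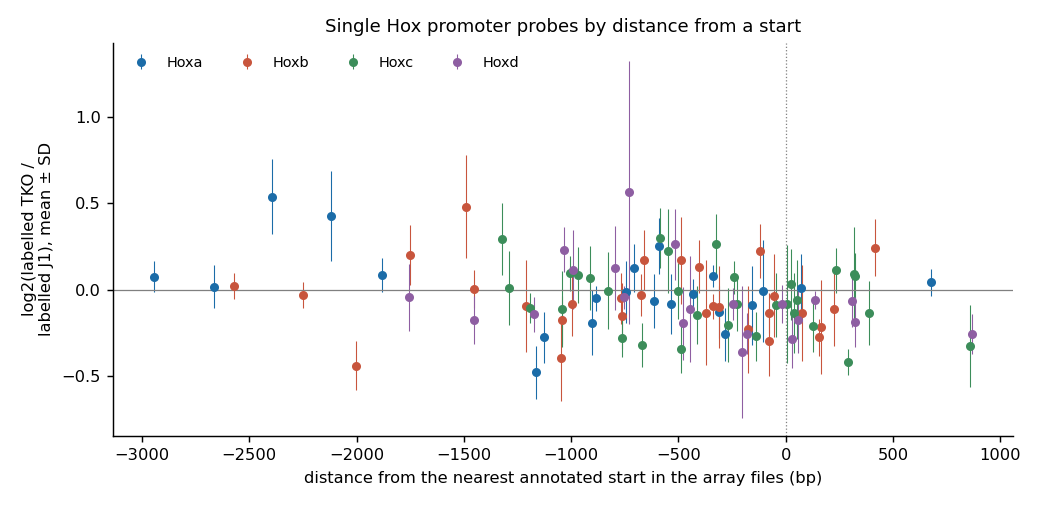
Mean log2 ratio (points) and SD over arrays (lines) of 104 of 134 Hox promoter probes between -3000 and 1000 bp of the nearest annotated start. Most points lie within 0.3 of 0; the 2 Hoxa10 probes are the highest points upstream of -1883 bp, and the Hoxd1 point at -729 bp has the longest line because 1 array reached 2.24.

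The arrays also carried a control tile of 25 numbered positions named for Hoxb1, the hindbrain gene, with 3 spots each on all 14 MeDIP arrays. Their coordinates are not in the files used here and they entered no call above. Position means ran between -0.54 and 0.98. Position 1 was at 0.88 ± 0.33 (SD, n = 7) on part 1 and 0.98 ± 0.39 on part 2, position 4 at 0.51 ± 0.31 and 0.51 ± 0.10, position 5 at 0.44 ± 0.25 and 0.60 ± 0.28 and position 7 at 0.35 ± 0.22 and 0.31 ± 0.23. These 4 were above 0 on all 14 arrays. Position 12 was at -0.54 ± 0.07 and -0.51 ± 0.08 and below 0 on all 14. Over the tile as a whole the mean was 0.08 on part 1 and 0.09 on part 2. The means of the 25 positions on the parts correlated at r = 0.978, a description over positions that share spots of one sequence and DNA of the same lines. The 5 Hoxb1 promoter probes of part 2, by contrast, lay between -0.22 and 0.22.

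**Figure D5:**
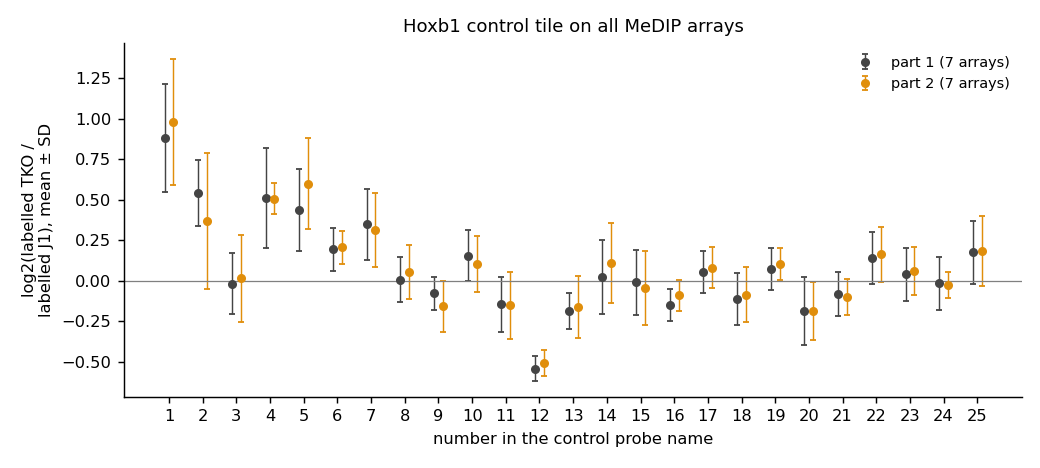
Mean log2 ratio (points) and SD over 7 arrays (lines) of each of the 25 numbered positions of the Hoxb1 control tile, on part 1 and part 2. The parts follow each other position by position, with position 1 highest and position 12 lowest on both.

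The third comparison set the assays side by side. Of the 6 genes higher in TKO by RNA, 3 had a promoter region of their own: Hoxb2 (RNA 1.00, MeDIP -0.17), Hoxc9 (RNA 1.19, MeDIP -0.01) and Hoxd1 (RNA 0.42, MeDIP -0.01). Hoxd13 (RNA 0.58) had a pair of promoter probes at -0.29 and -0.07, and Hoxd4 and Hoxa7 had none of their name. Hoxa10, with the highest MeDIP ratio among Hox regions at 0.35, was also the dim gene with the largest bound in TKO RNA. Among the regions with the lowest MeDIP ratios, the one named Hoxb8 lay nearest to the Hoxb7 start. The RNA probes of Hoxb8 were at -0.02 and -0.01, not well above background in either line. Hoxb7 RNA was at 0.62 without the filter, well above background in both lines on 2 arrays. Hoxc5 RNA was at 0.05. None of these pairs was tested across assays.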

How the data were processed

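DNA pulled down by MeDIP from TKO (Cy5) and J1 (Cy3) ES cells, and RNA of both lines, were measured on Agilent 2-colour arrays. The deposited spot intensities are mean signals with local background and, per the file headers, processed signals that the scanner software background-subtracted and dye-normalized (linear for MeDIP, LOWESS for expression). The deposited log10 ratios are red over green per array, and for expression the authors' mean of 3 arrays with replicate 2 turned, per the design text. Feature Extraction 8.5 is named in the submitters' processing notes; the headers of 2 expression arrays give 7.5. The sources used here name no genome build for the positions of the probes.

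MeDIP ratios were log2 of the processed signals, centred on each array's median, without uneven spots, and averaged over regions of at least 3 probes split at gaps over 2000 bp. Expression ratios came from normexp (offset 50) and loess, again without uneven or control spots, with spots of a probe averaged. Both were tested against 0 with limma 3.58.1 in R 4.3.3, with Benjamini-Hochberg adjustment over all features. Of 41174 expression probes 22072 were named by accession, 6280 by symbol and 4226 by synonym, and 8596 kept the file's name. The authors' expression means, for which the files state no direction, correlated with the fit at r = 0.922 over 16086 probes. No sample column was left unused (0).

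On simulated data with 200 changed features, part 1 (7322 regions) recovered 99.0% at a log2 change of 0.6, part 2 (7334 regions) 97.1%, and expression (10375 probes) 81% at 1 and 97% at 2, with 4 false calls. The simulated noise was normal and independent between arrays. No smaller change was simulated, so the recovery says nothing about changes the size of most Hox ratios here. All Hox probes past the expression filter are named, as are the 3 highest and 3 lowest Hox regions of each cluster and up to 4 called genes of each list; the Hoxc9 region, single promoter probes, tile positions and dim RNA probes were picked with their values in view. Some results that the counts include are not reported here by name. The members and lists were chosen with earlier results of these data known. Alternatives changed the background correction, centring, filters, probe summary, dye term, slide block and the arrays used.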

Additional observations from a re-analysis of the deposited data

Results flagged for a closer look

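In 2 of 25 Hox promoter regions 1 array stood apart from the other 6, by a gap to its nearest neighbour of more than 0.568 of the range over 7 arrays; chance alone does this in about 1 in 20 groups. For Hoxd1 it was replicate 6 of part 1, at a log2 ratio of 0.44 with the next array at 0.02, and the region's mean was -0.01 with it and -0.08 without it. For Hoxb3 it was replicate 2 of part 2, at 0.0809 with the next array at 0.0088, and the mean was -0.0033 with it and -0.02 without it.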

How the results depend on the processing

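No called direction of a named Hox region or Hox RNA probe turned under the alternatives run; of the listed genes, Jarid2 (0.29) was at -0.0016 with median centring. Of the 154 values of named regions 139 kept their side of the threshold, 10 lost it and 5 gained it, and in 15 the sign changed with neither value past the threshold. Of 88 values of named RNA probes 72 kept their side, 6 lost it, 2 gained it and 8 moved with the authors' deposited means. The count of Hox promoter calls was 1 on the labelled TKO side with single probes, and 2 on that side and 7 on the labelled J1 side with no size cut, against 0 with the settings of the report. Hox RNA probes higher in TKO numbered 6, but 2 with median centring and 10 with no filter on dim probes, and between 5 and 6 with 1 array left out. Hoxa7 rested on a single array where replicate 1 or 2 was the one left out. The cause of the loss under median centring was not tested. Hox genes detected on at least 2 of 3 arrays were 18 in TKO and 14 in J1, against 8 and 4 on all 3. The shares of all probes were 54.1% and 56.7%, against 36.0% and 37.8% on all 3. The slide block used the correlation of part 2, since in part 1 it could not be estimated. No paired analysis was possible because each array holds both lines, so the ratio on an array is already within a replicate, and the parts, which share replicate numbers, hold different promoters and are set side by side, with no test, only for the Hoxb1 control tile. Dim signal limits the RNA comparison: most Hox probes were not well above background on every array.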
